A study of Mus musculus with 12 samples.

Results

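The BCL2 family decides whether the mitochondrial outer membrane stays intact, and with it whether a cell lives or enters apoptosis. The expression of 10 of its genes was followed in splenic resting B cells, out of 37991 gene identifiers counted. They were chosen by name, though with earlier results of these data known. They fall into 3 roles: the prosurvival genes Bcl2, Bcl2l1, Mcl1, Bcl2a1b and Bcl2a1d, the BH3-only genes Bcl2l11, Bbc3 and Pmaip1, and the effectors Bax and Bak1. All 10 members passed the filter on low counts.

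Prosurvival proteins hold the effectors in check, and BH3-only proteins, which sense stress or loss of survival signals, bind and neutralise them. When the effectors are freed they form pores, cytochrome c leaves the mitochondria, and caspases are activated. In mature B cells, BCL2 and MCL1 are known supporters of the resting cell, and BCL-XL (Bcl2l1) and A1 (Bcl2a1) are known to be induced through the B cell receptor.

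RNA was sequenced from 12 samples of spleen B cells of mice labelled as 8 weeks old, 3 in each of 4 groups. Cre-only mice carried the CD23-iCre transgene, and Runx1 c-k/o mice carried the same transgene with Runx1 alleles whose exon 4 is flanked by LoxP sites, so that all groups expressed Cre from the CD23 promoter, which becomes active at the transitional B cell stage. Cells of each genotype were taken at rest (0 h) or after 3 h of activation with anti-IgM and IL-4, which stimulate the B cell receptor and the IL-4 receptor. The B cells were obtained by negative selection and are a mixed population of the mature spleen, and they are called Cre-only and c-k/o cells here.

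Totals ran from 14442251 to 23641552 counts per library, at which the floor of 3 counts was 0.127 to 0.208 CPM (counts per 1000000 counts of the library), a floor that covers counting error only. Counts of Runx1 over the whole gene were not lower in the c-k/o samples, with 84.0 ± 2.48 and 99.9 ± 3.75 normalized CPM at rest and 36.8 ± 1.82 and 64.1 ± 14.7 at 3 h (Cre-only first, mean ± SD, n = 3), and since only exon 4 was deleted this gene-level count does not check the deletion. The 6 B cell markers summed to between 8817 and 20418 CPM in every library, and the 6 T cell markers to at most 6.36 CPM. The 5 monocyte and macrophage markers, all detected, summed to 251 to 312 CPM in resting and 15.1 to 22.5 CPM in 3-h Cre-only cells, and to at most 440 and 49.3 CPM in c-k/o cells at those times. Of 11 marker lists, 5 had summed levels that were lower at 3 h than at rest without overlap in Cre-only cells: B cell, monocyte and macrophage, NK cell, platelet, and plasma cell (133 to 201 CPM at rest and 59.1 to 98.8 at 3 h). The summed dendritic cell list was higher, up to 20.8 CPM, through Zbtb46 alone, while Xcr1 and Clec9a were lower. The marginal zone B cell list was also higher, with 3 of its 6 genes higher and 2 lower. The part of these lists in the changes after activation was not tested. None of the markers was at 0 in every library. In bulk RNA, fewer cells of a type and less RNA per cell cannot be told apart. No spike-in values were used here, so all levels are shares of the library and not amounts per cell.

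A pair of c-k/o libraries stood apart from their own groups. Replicate 2 of the resting group differed from the other 2 by a chi-square per degree of freedom of 37.4 and 30.6, where the other 2 differed by 4.97 and Cre-only replicates by 3.31 to 5.95. Replicate 1 of the 3-h group differed from its companions by 60.6 and 84.7, against 13.9 between those. The resting library held 130 CPM of Cd86, a costimulatory gene induced on activation, against 66.7 and 70.0 in its companions. Of the other activation markers Egr1, Myc and Nr4a1 were also highest in it, and Cd69 was not (564 CPM against 542 and 573). Its monocyte and macrophage markers (440 CPM against 215 and 355) and plasma cell markers (284 against 92.4 and 197) summed highest too. The 3-h library held 14288 CPM of summed B cell markers, 12577 of them Cd74, against 9769 and 8817. Several BCL2 family genes moved with these libraries.

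Levels between genes were compared as normalized CPM per kb of exon (CPM divided by the length of the merged exons). In resting Cre-only cells Mcl1 was the highest of the 10, at 189 ± 9.33 CPM per kb (SD, n = 3), followed by the BH3-only gene Pmaip1 at 67.1 ± 6.92 and Bax at 41.3 ± 0.36. These 3 did not overlap with one another or with the next gene. Bcl2, Bcl2a1b, Bcl2l11, Bcl2a1d and Bak1 lay close together, at 15.0 down to 12.3 CPM per kb, and each overlapped its neighbour in the order. Bbc3 stood at 5.57 ± 1.14, and Bcl2l1 was lowest, at 1.22 ± 0.09 CPM per kb.

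After 3 h the order in Cre-only cells had changed. Mcl1 still led at 150 ± 8.89 CPM per kb, followed by Bax at 106 ± 3.74, Bcl2a1d at 91.7 ± 10.9 and Bcl2a1b at 67.5 ± 4.94, and of these neighbours only Bax and Bcl2a1d overlapped. Bcl2l1 had reached 22.9 ± 1.41 CPM per kb, below Bcl2l11 at 25.2 ± 1.18. Pmaip1 was at 9.81 ± 0.95, and Bcl2 was now the lowest of the 10, at 1.47 ± 0.23 CPM per kb. The c-k/o cells showed the same first and last gene at each time, with Mcl1 at 216 ± 5.32 and then 182 ± 24.6 CPM per kb, Bcl2l1 last at rest (2.44 ± 1.79) and Bcl2 last at 3 h (1.84 ± 0.81). Neighbours that did not overlap in Cre-only cells overlapped there. At rest these were Pmaip1 and Bax. At 3 h they were Mcl1 and Bax, Bcl2a1d and Bcl2a1b, Bcl2l11 and Bcl2l1, Bcl2l1 and Bak1, and Pmaip1 and Bbc3.

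**Figure D1:**
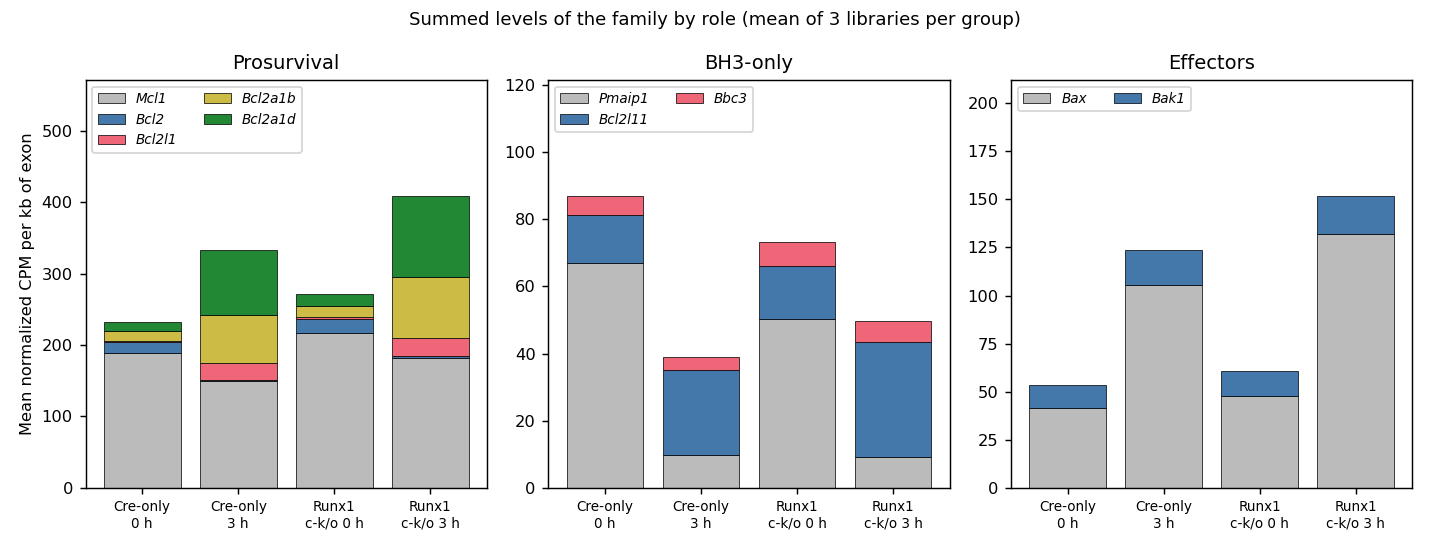
Stacked bars of the mean normalized CPM per kb of exon (y axis, from 0) of each gene, by role, in the 4 groups (x axis, 3 libraries each). From rest to 3 h in Cre-only cells the prosurvival sum went from 233 to 334 CPM per kb with a growing share of the Bcl2a1 genes, the BH3-only sum from 86.9 to 38.9 with Pmaip1 giving way to Bcl2l11, and the effector sum from 53.6 to 124.

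In sum per kb, the 5 prosurvival genes held 233 ± 10.5 CPM per kb at rest and 334 ± 25.4 at 3 h in Cre-only cells, and the 3 BH3-only genes 86.9 ± 8.54 and 38.9 ± 2.50. Without division by length the prosurvival sums were 794 ± 30.4 and 772 ± 46.9 CPM, the other direction. Mcl1 made up 81.1% ± 0.46 of the prosurvival sum at rest and 45.0% ± 0.85 at 3 h. With Mcl1 set aside, Bcl2 made up 34.1% ± 2.12 of the rest of that sum before activation and 0.81% ± 0.19 after it. The pair of Bcl2a1 genes held 63.1% ± 2.15 and 86.7% ± 0.83 of it. These shares, too, depend on length: of the CPM without Mcl1, Bcl2 held 79.1% ± 1.47 at rest and 4.28% ± 0.95 at 3 h, and the Bcl2a1 genes 16.7% ± 1.27 and 52.2% ± 1.87. Among the BH3-only genes the lead passed from Pmaip1, with 77.2% ± 0.40 of the sum at rest, to Bcl2l11, with 64.7% ± 1.55 at 3 h.

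The ratio of the prosurvival to the BH3-only sum per kb was 3.08, 2.68 and 2.35 in the 3 resting Cre-only libraries and 8.89, 9.16 and 7.71 at 3 h. The c-k/o values were 3.50, 4.16 and 3.45 at rest and 11.4, 7.14 and 6.44 at 3 h, the 11.4 being from the 3-h library that stood apart. In both genotypes all 3-h values lay above all resting values. The ratio depended on dividing by length: without that step it went from 2.64 ± 0.30 to 3.27 ± 0.26 in Cre-only cells but, in the other direction, from 3.43 ± 0.04 to 3.04 ± 0.90 in c-k/o cells. It is a ratio of transcripts and was not tested.

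The first question was how the family responded to 3 h of anti-IgM and IL-4. In Cre-only cells 9 of the 10 genes passed the threshold of 0.05 on the adjusted p of edgeR's quasi-likelihood test, 6 higher and 3 lower, and in c-k/o cells 8 of 10, 6 higher and 2 lower. Activation changed most genes: 75.0% of the 13538 genes tested were called in Cre-only cells and 74.3% in c-k/o cells, so that the number of members called says little by itself. The median log2 fold change of the members was 0.69 and 0.84 in these genotypes, beside 0.03 and 0.005 over all genes tested.

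**Figure D2:**
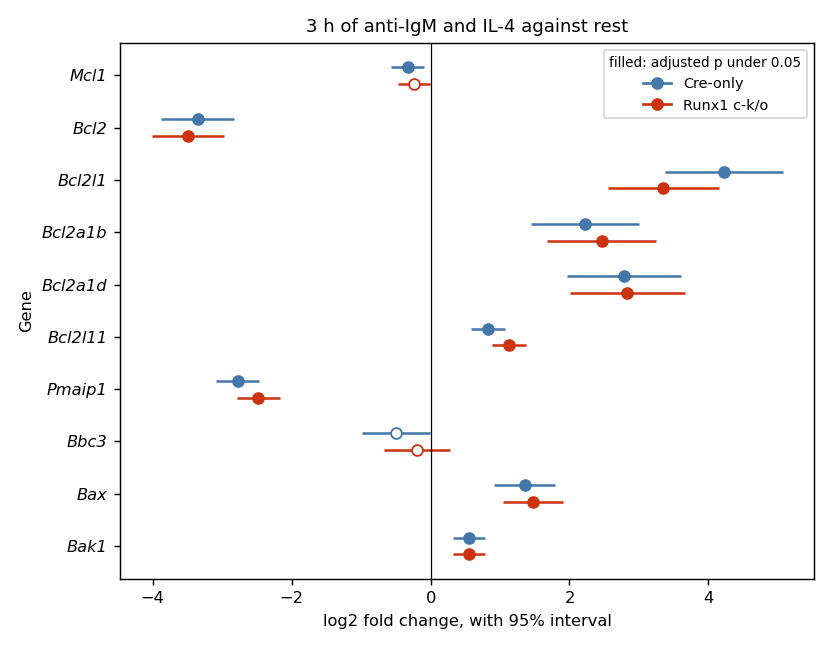
Log2 fold change from rest to 3 h (x axis) of each gene (y axis), with its 95% interval, in Cre-only and c-k/o cells. Filled circles passed an adjusted p of 0.05: Bcl2 and Pmaip1 lie far below 0, Bcl2l1 and the Bcl2a1 genes far above it, and the intervals of the genotypes overlap for each gene.

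Among the prosurvival genes, Bcl2 fell and Bcl2l1 rose. Bcl2 (chr1:108434755-108610851, minus strand, mm9), the founding member and a guardian of resting lymphocytes, stood at 102, 110 and 112 normalized CPM in the resting Cre-only libraries and at 10.2, 9.08 and 12.4 at 3 h. The c-k/o libraries were at 161, 131 and 157 at rest and at 9.20, 19.9 and 10.7 at 3 h. Every resting library was above every 3-h library. Bcl2 fell 10.2-fold in Cre-only cells (log2 fold change −3.36, SE 0.24, adjusted p = 1.2e-07 with edgeR) and 11.3-fold in c-k/o cells (−3.50, SE 0.24). With 1 factor of unwanted variation, estimated from the replicates, the fall in Cre-only cells was 6.16-fold in edgeR and 6.52-fold in DESeq2. Of its 7191 bases of exon, 558 are shared with exons of D630008O14Rik on the opposite strand, and the strand setting of the counting is not given in the sources used here.

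Bcl2l1 (chr2:152593052-152657464, minus strand), which encodes BCL-XL, was at 6.17, 5.35 and 5.83 CPM at rest and 111, 113 and 101 at 3 h in Cre-only cells. It rose 18.7-fold there (log2 fold change 4.22, SE 0.39, adjusted p = 9.1e-07 with edgeR). Among c-k/o libraries the resting values were 6.21, 21.3 and 7.17 CPM and the 3-h values 149, 97.8 and 106. The rise in these cells was 10.2-fold (log2 fold change 3.35, SE 0.37), and 4.15 on the log2 scale without the resting library that stood apart, which held the 21.3 CPM. The factor of unwanted variation took the rise in Cre-only cells to 9.60-fold in edgeR and 7.72-fold in DESeq2, and that in c-k/o cells to 5.30-fold and 4.59-fold, all past the threshold.

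Mcl1 (chr3:95462643-95467099, plus strand), whose short-lived protein is required throughout B cell life, changed little by comparison. It was at 678, 675 and 620 CPM at rest and 504, 558 and 506 at 3 h in Cre-only cells, a 1.26-fold fall (log2 fold change −0.33, SE 0.11, adjusted p = 0.0128 with edgeR). The c-k/o libraries were at 767, 761 and 733 CPM at rest and 735, 584 and 589 at 3 h, where the highest 3-h library overlapped the resting range. The log2 fold change there was −0.25 (SE 0.11, adjusted p = 0.0521), and −0.37 with an adjusted p of 0.00108 without that 3-h library, which was the one that stood apart. The call in Cre-only cells was kept in 21 of 23 alternative settings. It was lost without 3-h replicate 1 (−0.30, adjusted p = 0.0530) or 3-h replicate 3 (−0.30, adjusted p = 0.0557). With both c-k/o libraries that stood apart left out, the change in Cre-only cells was −0.38 (adjusted p = 7.5e-06 with edgeR). The factor of unwanted variation made the falls larger, at −0.62 in edgeR and −0.72 in DESeq2 in Cre-only and −0.55 and −0.62 in c-k/o cells, all past the threshold.

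Bcl2a1b (chr9:89094047-89102665, plus strand) and Bcl2a1d (chr9:88618126-88626708, minus strand) are mouse copies of the gene of A1, a prosurvival protein and known target of NF-κB. A further copy, Bcl2a1a, is so alike that reads can be assigned to the wrong one. The start of their coding sequences (bases 1 to 120 from the start codon, GENCODE vM1 on mm9) is shown because it holds 7 of the 12 positions of the 519 coding bases at which the 3 copies differ, given in capitals:
Bcl2a1b: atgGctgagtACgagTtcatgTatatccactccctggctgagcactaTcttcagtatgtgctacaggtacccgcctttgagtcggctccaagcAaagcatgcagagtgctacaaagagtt
Bcl2a1d: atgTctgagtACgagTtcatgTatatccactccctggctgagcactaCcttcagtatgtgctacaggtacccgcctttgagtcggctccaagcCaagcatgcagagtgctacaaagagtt
Bcl2a1a: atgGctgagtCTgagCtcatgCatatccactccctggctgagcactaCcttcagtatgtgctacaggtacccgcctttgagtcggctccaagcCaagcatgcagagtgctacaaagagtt

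Over the coding sequence Bcl2a1b and Bcl2a1d differed at 6 bases (98.8% identity), with an identical run of 217 bases. Of all 50-base windows of the Bcl2a1b transcript, 57.4% also occurred in Bcl2a1d, so that many reads cannot be told apart between them. The exons of Bcl2a1b also share 401 of 817 bases with Mthfs on the same strand. Their values are therefore uncertain one by one, and were also tested after summing the counts of all copies. Summing does not restore reads left out because they matched several copies or Mthfs, and whether any were left out is not known. The levels per kb of the Bcl2a1 genes carry this limit too, as do the orders, sums and shares that include them.

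Bcl2a1b was at 12.3, 11.9 and 11.3 CPM at rest and 53.2, 59.8 and 52.6 at 3 h in Cre-only cells, and Bcl2a1d at 10.9, 11.8 and 9.85 and at 71.1, 85.0 and 68.5. Among c-k/o libraries Bcl2a1b went from 7.15, 21.6 and 9.89 to 106, 57.7 and 49.3 CPM. Bcl2a1d there went from 7.73, 23.7 and 7.30 to 124, 78.5 and 72.8 CPM. The highest value on each side came from the library that stood apart, and no resting library reached a 3-h one.

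Bcl2a1d rose 6.89-fold in Cre-only cells (log2 fold change 2.78, SE 0.38, adjusted p = 2.7e-05 with edgeR) and Bcl2a1b 4.65-fold (2.22, SE 0.36, adjusted p = 1.1e-04). The c-k/o rises were 7.12-fold and 5.51-fold, and 12.3-fold and 8.38-fold without the resting library that stood apart. The summed copies rose 5.39-fold and 5.96-fold. Bcl2a1a was read at 0.911 to 2.23 CPM in resting and 0.127 to 0.302 CPM in 3-h Cre-only libraries, and Bcl2a1c had a single count in 1 of 12 libraries. The factor of unwanted variation took the rise of Bcl2a1b in Cre-only cells to 0.98 on the log2 scale in edgeR and 0.82 in DESeq2, and that of Bcl2a1d to 1.66 and 1.39, all still past the threshold.

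**Figure D3:**
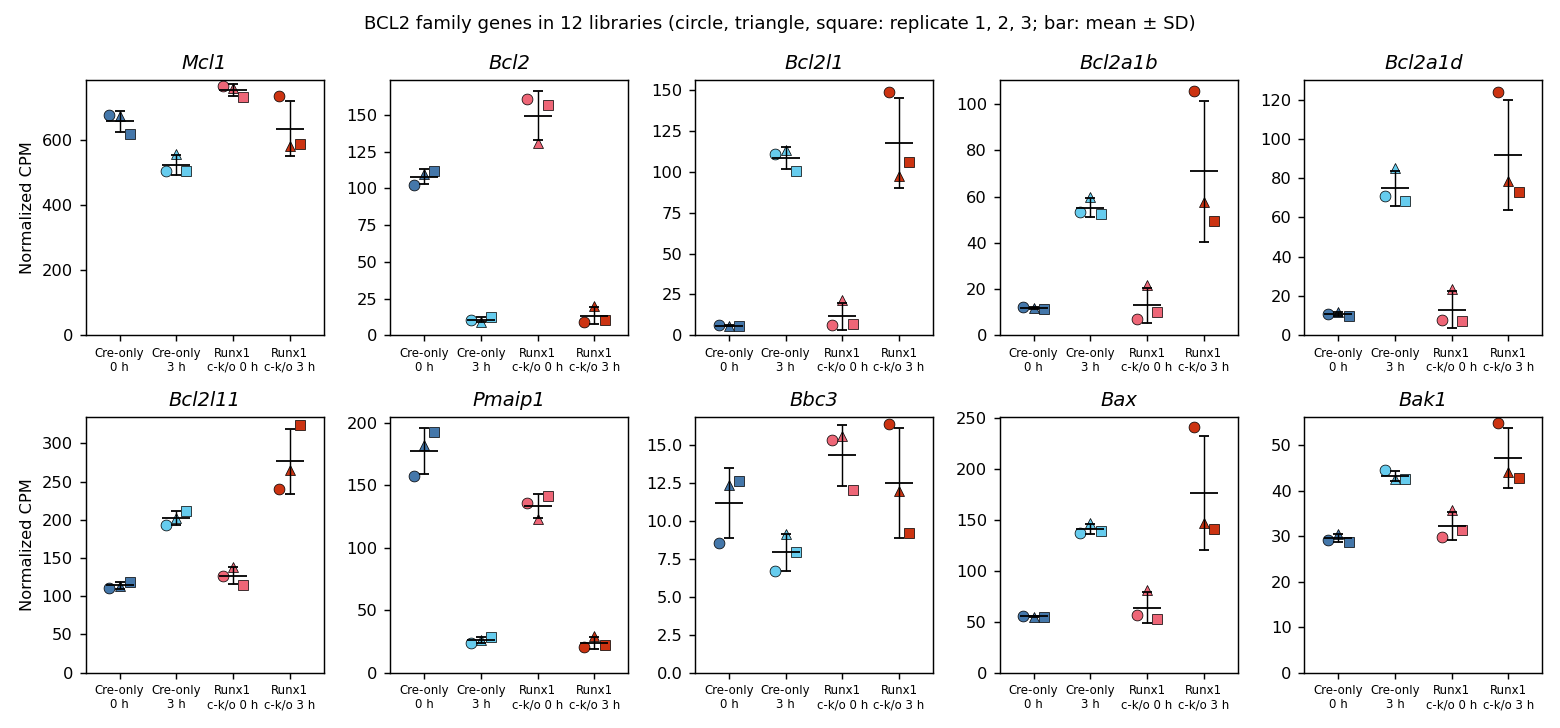
Normalized CPM (y axes, from 0) of each gene in the 12 libraries of the 4 groups (x axis), with symbols for replicates 1, 2 and 3 and black bars for the mean ± SD. Bcl2 and Pmaip1 drop and Bcl2l1, Bcl2a1b, Bcl2a1d, Bcl2l11, Bax and Bak1 climb by 3 h in both genotypes; resting replicate 2 and 3-h replicate 1 of the c-k/o cells sit highest of their groups for Bcl2l1, Bcl2a1b, Bcl2a1d, Bax and Bak1.

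The BH3-only genes moved in opposite directions. Pmaip1 (chr18:66618258-66625204, plus strand) encodes NOXA, which binds MCL1 and A1 and is a known p53 target. It was at 157, 183 and 193 CPM in resting and 23.3, 26.3 and 28.3 CPM in 3-h Cre-only libraries, and at 136, 122.7 and 142 and at 20.5, 29.3 and 21.9 CPM in c-k/o cells. The groups were far apart. Pmaip1 fell 6.85-fold in Cre-only cells (log2 fold change −2.78, SE 0.14, adjusted p = 1.7e-08 with edgeR) and 5.59-fold in c-k/o cells (−2.48, SE 0.14).

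Bcl2l11 (chr2:127951774-127988283, plus strand) encodes BIM, which binds all prosurvival members and is known to act in the deletion of autoreactive and cytokine-deprived B cells. It was at 110, 113 and 119 CPM at rest and 193, 202 and 212 at 3 h in Cre-only cells. The c-k/o libraries went from 127, 138 and 115 to 241, 266 and 324 CPM. It rose 1.77-fold in Cre-only (log2 fold change 0.82, SE 0.11, adjusted p = 2.5e-05 with edgeR) and 2.18-fold in c-k/o cells (1.13, SE 0.11, adjusted p = 1.9e-06), with no overlap between resting and 3-h libraries.

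Bbc3 (chr7:16894965-16903554, plus strand), the gene of PUMA, another p53 target, was the one member not called in either genotype. Its values in Cre-only cells were 8.53, 12.4 and 12.6 CPM at rest and 6.69, 9.15 and 7.96 at 3 h, and the lowest resting library overlapped the 3-h range. The c-k/o libraries were at 15.3, 15.6 and 12.01 CPM at rest and at 16.4, 11.9 and 9.19 at 3 h, which also overlapped. The log2 fold change was −0.50 (SE 0.22, adjusted p = 0.0599 with edgeR) there and −0.20 (SE 0.22, adjusted p = 0.42) with c-k/o alleles. In Cre-only cells it passed the threshold in 13 of 23 alternative settings. With libraries of equal replicate number paired within each genotype, it was −0.48 there (adjusted p = 0.0170 with edgeR). It also passed in both fits with a factor of unwanted variation, at −1.07 and −1.17 there and −0.82 and −0.88 in the c-k/o genotype.

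Both effectors rose. Bax (chr7:52717065-52722268, minus strand) was at 55.9, 55.2 and 55.0 CPM at rest and 138, 147 and 139 at 3 h in Cre-only cells, and at 57.0, 81.2 and 53.0 and then 242, 147 and 141 in c-k/o cells. It rose 2.55-fold (log2 fold change 1.35, SE 0.20, adjusted p = 5.2e-05 with edgeR) and 2.77-fold (1.47, SE 0.20), and in c-k/o cells 3.23-fold without the resting and 2.26-fold without the 3-h library that stood apart. The factor of unwanted variation took these to 0.53 and 0.60 on the log2 scale in edgeR, still past the threshold.

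Bak1 (chr17:27156755-27165954, minus strand) was at 29.3, 30.5 and 28.8 CPM at rest and 44.5, 42.6 and 42.5 at 3 h in Cre-only cells. The c-k/o libraries went from 29.7, 35.7 and 31.3 to 54.8, 44.0 and 42.8 CPM, again without overlap. It rose 1.46-fold (log2 fold change 0.55, SE 0.11, adjusted p = 5.0e-04 with edgeR) and 1.47-fold in c-k/o cells (0.55, SE 0.11). With the factor of unwanted variation the change in Cre-only cells was 0.19 in edgeR (adjusted p = 0.121) and 0.09 in DESeq2 (adjusted p = 0.593), and the call was lost in both genotypes. That factor is estimated from deviations between replicates. In some c-k/o libraries these correlated with the Cre-only activation change across genes (r of 0.38 in resting and −0.54 in 3-h replicate 2). Whether the factor took up part of the activation change, for Bak1 or other members, was not tested. Of 2407 exon bases 357 are shared with Ggnbp1 on the other strand.

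The second question was whether deletion of Runx1 exon 4 changed the family. At each time 3 of 11 marker lists had summed levels that were higher in c-k/o cells without overlap. At rest these were the B cell list (16515 to 17267 CPM in Cre-only and 17621 to 20418 in c-k/o libraries), the marginal zone B cell list (1247 to 1555 and 1774 to 1916) and the erythroid list (at most 193 and at least 194), of which 3 of 6, 3 of 6 and 1 of 3 genes did not overlap. At 3 h they were the marginal zone list (2346 to 2635 and 2680 to 3350), the platelet list (3.11 to 3.19 and 3.47 to 4.27) and the activation list (2362 to 2709 and 2860 to 3711), while the erythroid list overlapped. In the platelet list 1 of 3 genes and in the activation list 3 of 5 did not overlap. The activation list is not a measure of activation here. Its sum overlapped between rest and 3 h in both genotypes, with 2 of its 5 genes higher and 2 lower at 3 h. Most of the marginal zone sum was Cr2, and at 3 h 2 of its 6 genes were higher and 2 lower (S1pr3 and Dtx1) in c-k/o cells. The part of these lists in the differences between genotypes was not tested. At rest 0 of the 10 members were called by edgeR, where 1.49% of all genes tested were, and 0 by DESeq2. An unadjusted p under 0.05 was reached by 3 of the 10 and by 11.1% of all genes tested. Groups did not overlap for Bcl2, Bcl2l1 and Mcl1, higher in c-k/o cells, and for Pmaip1, lower, which is 4 of 10 beside 23.7% of all genes tested. The median log2 difference was 0.20 over the members and 0.03 over all genes. This median was not recomputed without the resting library that stood apart. Leaving that library out lowered the differences of all members but Bcl2 and Pmaip1, which it raised.

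**Figure D4:**
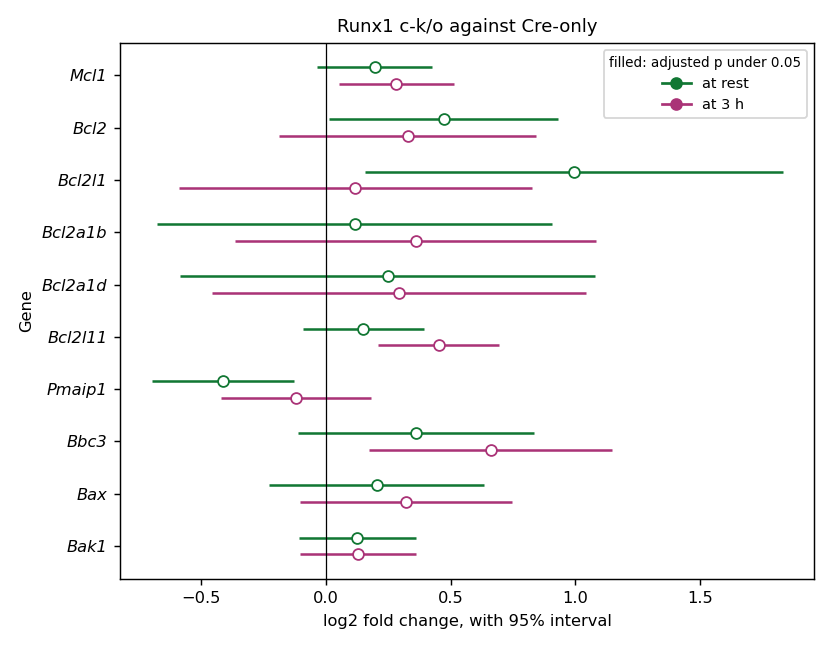
Log2 fold change of c-k/o relative to Cre-only cells (x axis) of each gene (y axis) with its 95% interval, at rest and at 3 h. No symbol is filled, since no gene passed an adjusted p of 0.05, and the intervals of Bcl2, Bcl2l1 and Pmaip1 at rest and of Mcl1, Bcl2l11 and Bbc3 at 3 h leave out 0.

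Resting Bcl2 stood at 108 ± 5.11 CPM in the Cre-only group and at 150 ± 16.5 in the c-k/o group, a log2 difference of 0.47 (95% interval 0.01 to 0.93, adjusted p = 0.435 with edgeR). Resting Pmaip1 was 178 ± 18.3 and 133 ± 9.71 CPM, a difference of −0.41 (−0.70 to −0.13, adjusted p = 0.213). With DESeq2 and a factor of unwanted variation both passed the threshold, at 0.58 (adjusted p = 0.00371) and −0.36 (adjusted p = 0.0297). Mcl1 was 658 ± 32.5 and 754 ± 18.6 CPM (0.20, −0.03 to 0.43, adjusted p = 0.548).

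For Bcl2l1 and the Bcl2a1 genes the resting values turned on the library that stood apart. Bcl2l1 was 0.99 higher on the log2 scale in c-k/o cells (0.16 to 1.83, adjusted p = 0.337 with edgeR), and 0.20 higher without that library. Bcl2a1b and Bcl2a1d were 0.12 and 0.25 higher with it and 0.48 and 0.53 lower without it. With both libraries that stood apart left out, Bcl2a1d passed the threshold as lower in resting c-k/o cells (−0.53, adjusted p = 0.0274), and Bcl2a1b did not (−0.48, adjusted p = 0.0540). Differences of Bcl2l11, Bbc3, Bax and Bak1 at rest ran from 0.13 to 0.36, with intervals that included 0. Without the resting library that stood apart, that of Bax was −0.01 and those of Bcl2l11 and Bak1 were 0.08 and 0.05.

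At 3 h again 0 of the 10 members were called by edgeR, where 2.77% of all genes tested were. DESeq2 called 1, Bcl2l11, among 709 genes in all. An unadjusted p under 0.05 was reached by 3 of the 10 and by 16.2% of all genes tested. Groups did not overlap for Mcl1, Bcl2l11 and Bbc3, all higher in c-k/o cells, 3 of 10 beside 21.8% of all genes. The median log2 difference was 0.31 over the members, beside 0.007 over all genes tested. This median was not recomputed without the 3-h library that stood apart. Leaving that library out lowered the differences of all members but Bcl2, Bcl2l11 and Pmaip1, which it raised.

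Bcl2l11 came closest to the threshold. The 3 Cre-only libraries lay between 193 and 212 CPM and the 3 c-k/o libraries between 241 and 324. The log2 difference was 0.45 (95% interval 0.21 to 0.69, adjusted p = 0.0525 with edgeR). It passed in 8 of 22 alternative settings, with adjusted p from 6.1e-06 to 0.208 over all of them. Without the 3-h library that stood apart, which held the lowest of the c-k/o values, the difference was 0.56 (adjusted p = 0.00314). It was 0.45 without the resting one (adjusted p = 0.0342) and 0.57 without both (adjusted p = 6.1e-05). Without 3-h replicate 3 of these cells, the highest, it was 0.32.

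Bbc3 was at 7.93 ± 1.23 CPM at 3 h in the Cre-only group and at 12.5 ± 3.61 in the c-k/o group, a log2 difference of 0.66 (0.17 to 1.15, adjusted p = 0.167 with edgeR), and 0.45 without the 3-h library that stood apart. Mcl1 was 523 ± 31.0 and 636 ± 85.7 CPM (0.28, 0.05 to 0.51, adjusted p = 0.217; 0.19 without that library), and passed in DESeq2 with a factor of unwanted variation (0.26, adjusted p = 0.00686). The differences of Bcl2, Bcl2l1, Bcl2a1b, Bcl2a1d, Bax and Bak1 at 3 h ran from 0.12 to 0.36, that of Pmaip1 was −0.12, and all of these intervals included 0. Without the 3-h library that stood apart, those of Bcl2l1 and Bcl2a1b were −0.07 and −0.02, those of Bcl2a1d, Bax and Bak1 0.04, 0.05 and 0.03, and that of Bcl2 0.56. Without 3-h c-k/o replicate 2, that of Bcl2 was −0.08.

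**Figure D5:**
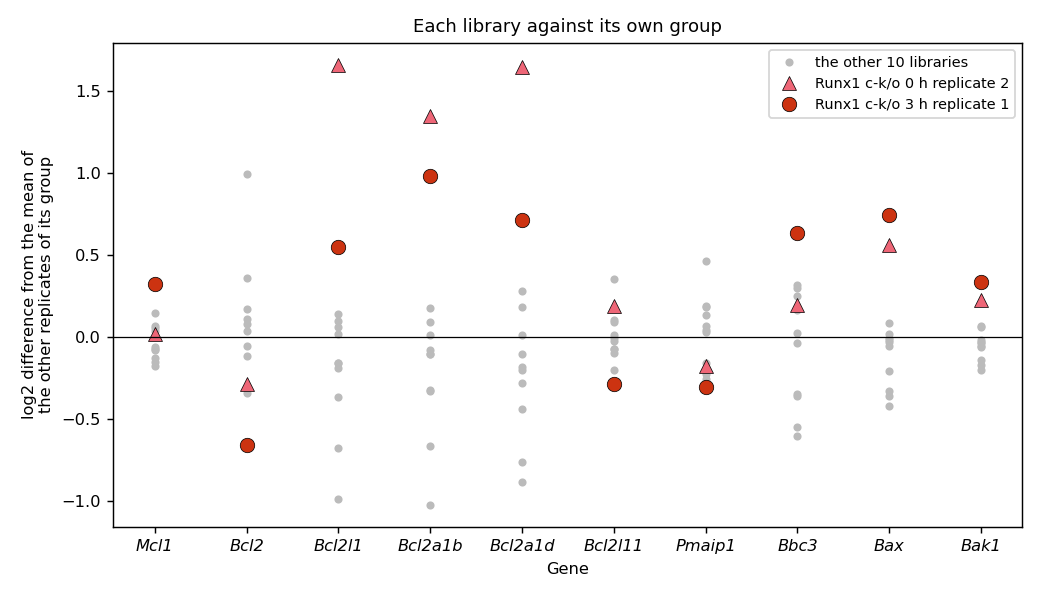
Log2 difference of each library from the mean of the other replicates of its group (y axis) for each gene (x axis). Resting replicate 2 of the c-k/o cells lies 1.66 above its companions for Bcl2l1 and 1.64 for Bcl2a1d, and 3-h replicate 1 lies 0.55 and 0.71 above its own for the same genes and 0.29 below them for Bcl2l11.

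In the resting library that stood apart, 8 of the 10 members deviated in the direction in which activation moved them in Cre-only cells, including Bcl2 (0.28 lower) and Bax (0.56 higher). Across the 13538 genes tested its deviation and the Cre-only activation change had a Pearson r of 0.38, with genes not being independent replicates. In the 3-h library 7 of 10 deviated in that direction, among them Bcl2 (0.66 lower) and Bax (0.74 higher), but Bcl2l11, which activation raised, was 0.29 lower. Another library of that group, replicate 2, deviated against the activation change (r of −0.54 across genes, 2 of 10 members in its direction), with Bcl2 1.00 higher than in its companions. A count of 7 of 10 was also found in resting Cre-only replicate 1, which did not stand apart (r of 0.03 across genes). The share of all genes that deviated in the activation direction was not counted, so these counts say little by themselves.

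The third question was whether the response to activation differed between genotypes. For the interaction 0 of the 10 members were called by edgeR and 0 by DESeq2, where 0.0813% of all genes tested were called by edgeR. An unadjusted p under 0.05 was reached by 0 of the 10 and by 5.07% of all genes tested. The largest difference was that of Bcl2l1, whose rise was 0.88 smaller on the log2 scale in c-k/o cells (95% interval −1.97 to 0.22), and 0.08 smaller without the resting library that stood apart. Bcl2l11 rose by 0.30 more in c-k/o cells (−0.04 to 0.64, adjusted p = 0.999 with edgeR), and by 0.48 more with both libraries left out, where it passed the threshold (adjusted p = 0.0288). The comparisons of activation and of genotype share samples, so their values stand side by side and are not independent.

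Other genes of the pathway changed on activation as well. Over all genes tested, 75.0% were called on activation in Cre-only cells and 74.3% in c-k/o cells. Between genotypes 1.49% were called at rest and 2.77% at 3 h. Beside these shares, the counts called in the lists that follow say little by themselves. Of 17 further BCL2 family genes 12 were tested, and in Cre-only cells 2 rose, 7 fell and 3 were not called, with a median log2 fold change of −0.68. Bid, a BH3-only gene that links death receptors to mitochondria, rose 2.56-fold, from 40.6 ± 1.67 to 104 ± 3.34 CPM, and Bnip2 1.29-fold, a call lost in DESeq2 with a factor of unwanted variation (0.13 on the log2 scale, adjusted p = 0.297). Bmf, a BH3-only gene that binds BCL2, fell 7.70-fold, from 101 ± 5.92 to 13.1 ± 1.42 CPM. Bnip3l, a receptor for removal of mitochondria, fell 2.89-fold, and Bad, a BH3-only gene, fell 2.01-fold. Bcl2l15 fell from 0.78 ± 0.10 to 0.24 ± 0.11 CPM, a level close to the floor. Among these genes 2 rose and 6 fell in c-k/o cells.

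Of that list 0 genes were called between genotypes. Resting Bmf, picked after its values were seen, was at 108, 99.0 and 96.3 CPM in Cre-only libraries and at 176, 151 and 173 in c-k/o ones, with no overlap. The log2 difference was 0.72 (95% interval 0.18 to 1.27, adjusted p = 0.261 with edgeR). It passed in 3 of 22 alternative settings, with adjusted p from 0.00432 to 0.598 over all of them. Those 3 were the fit without 3-h c-k/o replicate 2, that of the compared groups alone and DESeq2 with a factor of unwanted variation.

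Among 19 genes of the apoptosome, caspases and inhibitors of apoptosis, 9 rose and 8 fell on activation in Cre-only cells. The initiator caspase gene Casp9 fell 3.53-fold. Casp6, another caspase gene, rose 11.5-fold, from 14.2 ± 0.22 to 164 ± 13.3 CPM. Diablo, whose protein antagonises the inhibitors of apoptosis, rose 2.26-fold, and Birc2, one of these inhibitors, fell 2.07-fold. With c-k/o alleles 8 rose and 8 fell, and none of the 19 was called between genotypes.

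Of 12 genes of the death receptor arm 11 were tested, and 6 rose and 4 fell in either genotype. Cflar, which encodes the caspase-8 inhibitor c-FLIP, rose 4.78-fold in Cre-only cells, from 117 ± 6.94 to 560 ± 21.6 CPM, and Casp8 fell 2.05-fold. Among the receptors Tnfrsf1b rose 2.85-fold, Tnfrsf10b fell 3.40-fold, and Tnfrsf1a fell from 5.21 ± 1.11 to 0.32 ± 0.21 CPM. Ripk1, a kinase downstream of TNF receptors, rose 1.70-fold. None of the 11 was called between genotypes.

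Of 25 genes known to act upstream of the members, 19 rose and 4 fell on activation in Cre-only cells, and 15 rose and 3 fell in c-k/o cells. Stat5a, a transducer of cytokine signals, rose 8.36-fold, Nfkb1, a subunit of NF-κB, 3.06-fold, and Stat6, the transducer of IL-4 signals, 1.68-fold. Foxo1 and Foxo3, which encode factors known to activate Bcl2l11, fell 4.16-fold and 2.95-fold, while Bcl2l11 itself rose 1.77-fold.

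Tnfrsf13c, the receptor of the survival cytokine BAFF, was the 1 gene of these lists called between genotypes. It rose 1.97-fold on activation in Cre-only cells. At 3 h it was at 337 ± 4.9 CPM in the Cre-only and 456 ± 24 CPM in the c-k/o group (SD, n = 3), 1.36-fold higher (log2 difference 0.44, SE 0.09, adjusted p = 0.0258 with edgeR). It passed in 14 of 22 alternative settings, but not with a replicate block (adjusted p = 0.0508), in a fit of the compared groups alone (0.0611), or without any 1 of the 3-h Cre-only libraries (adjusted p of 0.102 to 0.115), resting Cre-only replicate 1 or 3 (0.0542 and 0.0523) or c-k/o 3-h replicate 2 (0.0525).

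The promoters of 9 of the 10 members, with 14 start sites between them, were read from RefSeq (GRCm38.p6) over the 250 bases before each start and searched on both strands. That of Pmaip1 was not searched. The FOXO motif GTAAACA occurred before 1 of the 2 starts of Bcl2l11 and 1 of the 3 of Bbc3, beside 3.17% of all 32851 promoters. The window of Bcl2l11 is printed because this gene rose while Foxo1 and Foxo3 fell. It lies at chr2:128125788-128126037 on the plus strand, with the motif in capitals:
Bcl2l11: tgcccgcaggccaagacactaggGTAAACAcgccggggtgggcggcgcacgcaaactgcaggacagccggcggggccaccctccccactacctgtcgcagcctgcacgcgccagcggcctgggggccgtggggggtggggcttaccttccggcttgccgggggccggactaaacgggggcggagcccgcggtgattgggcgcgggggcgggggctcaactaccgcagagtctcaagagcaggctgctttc

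The RUNX core, searched only as TGTGGT, occurred in the window of Bak1 alone among the 9 members searched, beside 4614 of all 32851 promoters. These members leave out Pmaip1. Other forms of the core, such as TGCGGT, were not searched, so the remaining windows cannot be said to lack a RUNX site. The E-box CACGTG occurred before Bax and 1 start of Bbc3 (6.02% of all), and the AP-1 motif TGACTCA in none (4.46% of all). The NF-κB motif, GGGA and TTTCC with any 1 base between them, was in none of the 14 windows, those of Bcl2a1b and Bcl2a1d included, and in 0.356% of all. No window held different motifs of those searched, and windows of the Bbc3 starts overlap in part. These matches describe letters in a short window and not binding.

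Over the 12 samples, Bcl2a1b and Bcl2a1d followed each other with a Pearson r of 0.99 on the log2 scale, and Mcl1 and Bbc3 with 0.83. These correlations share the libraries and the step from rest to 3 h. The gene most like Bcl2l1 was Srm, spermidine synthase, with r of 0.999, and that most like Bcl2 was Fam63a, with 0.998, but 2632 and 1920 genes had r over 0.95 with them. Mcl1 and Bbc3 had few such companions: 6 genes passed 0.95 with Mcl1, led by Fam100b (0.96), and 0 with Bbc3, whose nearest was Dnajc4 (0.94).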

How the data were processed

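The authors added spike-in RNA to lysed B cells, made stranded poly(A) libraries, aligned the reads to mm9 (NCBIM37) with Tophat2 2.0.11 and counted them on genes with featureCounts. CASAVA 1.8.4 is also named in the submitters' processing notes. The deposited values are raw read counts per gene, not normalized. The strand setting and treatment of reads with several alignments are not given in the sources used here. The table held 0 spike-in rows. Gene names, positions and exon lengths came from GENCODE vM1 (mm9). The authors compared genotypes with DESeq2 and RUV-seq.

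Here, genes were filtered with filterByExpr of edgeR 4.0.16 (minimum 10 counts; 13538 kept), scaled with TMM (factors 0.886 to 1.07) and fitted in R 4.3.3 with robust quasi-likelihood over 4 groups. The threshold was a Benjamini-Hochberg adjusted p of 0.05 over all tested genes. The comparisons were 3 h against rest in each genotype, Runx1 c-k/o against Cre-only at rest and at 3 h, and their interaction. The members and lists were chosen with earlier results of these data known. Named were all members, their Bcl2a1 copies, up to 6 genes per list with the smallest adjusted p in Cre-only activation, up to 3 per list in each genotype comparison if past the threshold, and the gene best correlated with each member. Some genes that this rule names are not reported here. The scripts were tested on simulated data. The study calls its replicates biological, but the labels do not name the animals, so p-values measure the spread between these samples. In Cre-only cells, libraries with equal replicate numbers deviated together from their group means at rest and 3 h (r of 0.28, 0.18 and 0.14). An alternative fit paired equal numbers within each genotype, though the labels state no pairing. In Runx1 c-k/o cells, which that fit paired as well, equal numbers did not deviate together (r of −0.25, −0.26 and 0.25). The highest r there joined unequal numbers: resting replicate 2 with 3-h replicate 1 (0.48), 3 with 2 (0.31) and 1 with 3 (0.27). The first of these joins the libraries that stood apart. Whether such libraries share an animal is not given by the labels, and no fit paired them in this way. Alternatives were other normalizations and filters, DESeq2 1.42.0, 1 RUVs factor (computed from its definition), replicate blocks, only the groups compared, each library left out, and summed Bcl2a1 copies. Leaving out both libraries that stood apart was added after seeing the data.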

Additional observations from a re-analysis of the deposited data

How the results depend on the processing

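Activation counts of the members stayed within 8 to 10 in Cre-only and 8 to 9 in Runx1 c-k/o cells when any 1 library was left out, and 0 of 23 alternatives moved either count, or that of all genes, by over 1.5 times. A block on replicate number gave 9 members and 10036 genes in Cre-only cells and changed the call of none of the members, and a block within each genotype changed that of Bbc3 alone (10 members). The counts for genotype were less stable. For all genes at rest (202) they were 378 with DESeq2, 524 and 611 with a factor of unwanted variation in edgeR and DESeq2, 598 without both libraries that stood apart, and 81 (without resting Cre-only replicate 2) to 386 (without 3-h c-k/o replicate 1) without 1 library. At 3 h (375) they were 709, 1036, 1230, 914 and 180 (without Cre-only 3-h replicate 1) to 617 (without c-k/o 3-h replicate 3), and 158 with only the groups compared. For the interaction (11) they were 83, 142, 253, 187 and 4 to 31, and 4 with the block within genotype. Among members, the resting count was 2 in DESeq2 with the factor and 1 without both libraries. At 3 h it was 1 with DESeq2 size factors, a minimum of 10 counts in every sample, DESeq2, edgeR with the factor and without both libraries, 2 in DESeq2 with the factor, and 0 to 1 without 1 library. For the interaction it was 1 without both libraries. The cause of these shifts was not tested.

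Some differences between genotypes that passed no threshold changed sign. At rest Bcl2a1b was −0.16 and −0.19 (log2) with the factor in edgeR and DESeq2 and −0.48 without both libraries, Bcl2a1d −0.017, −0.10 and −0.53, and Bax −0.0048 without both. At 3 h Bcl2l1 was −0.090, −0.078 and −0.067, and without both libraries Bcl2a1b was −0.022 and Pmaip1 0.0058. Without 1 library, resting values ran from −0.48 to 0.41 for Bcl2a1b, −0.53 to 0.53 for Bcl2a1d and −0.011 to 0.32 for Bax. At 3 h they ran from −0.083 to 0.56 for Bcl2, −0.067 to 0.24 for Bcl2l1, −0.021 to 0.56 for Bcl2a1b, −0.29 to 0.0067 for Pmaip1 and −0.28 to 0.53 for Bmf. Low counts limited Bcl2a1a, Bcl2l15 and Tnfrsf1a.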
